A study of Mus musculus with 12 samples.

Results

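Kupffer cells are the resident macrophages of the liver, and 8 genes that mark their identity are described here: Cd5l, Marco, Clec4f, Vsig4, Timd4, Adgre1, Cd163 and Folr2. They were taken by symbol from the probe sets that name exactly 1 gene. Each of the 8 had 1 such probe set, so no choice between probe sets arose, and they are 8 of the 22180 genes measured this way. All 8 passed the filter on low values that left 14031 genes for testing. Liver RNA had been hybridised to 12 Affymetrix arrays, 3 in each of 4 groups of male C57BL/6 mice. These were Pparβ/δ-/- mice on the ethanol diet, Pparβ/δ-/- mice on the control diet, wild-type mice on the ethanol diet and wild-type mice on the control diet. The mice were aged 8 to 10 weeks, and every group was fed liquid diet for 16 weeks after 1 week on the control diet. The ethanol diet held 4% (v/v) ethanol.

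Pparβ/δ-/- mice, called null below, lack the nuclear receptor PPARβ/δ, which the gene Ppard encodes. The labels name no cell-specific deletion and do not say which part of the gene is disrupted. Each group of the feeding study had 10 mice, and whether every array came from its own mouse is not stated. The errors and p-values therefore cover only how these 12 samples vary, which may be technical. The 3 arrays per group limit the precision of every value. Ppard averaged 7.96 ± 0.09 in null ethanol, 7.84 ± 0.13 in null control, 7.86 ± 0.10 in wild-type ethanol and 7.78 ± 0.20 in wild-type control arrays (log2 intensity, SD, n = 3), so its probe set checks no genotype label. Array medians lay between 5.55 and 5.62 on the log2 scale. Albumin (Alb) lay at or above percentile 99.991 of genes on every array, and the Kupffer cell genes Vsig4 and Cd5l at or above percentiles 84.3 and 80.2. The monocyte genes Ly6c2, Ccr2 and Chil3 and the neutrophil genes S100a8 and Ly6g did not pass the filter.

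Kupffer cells line the liver sinusoids and take up bacteria, dying cells, old red cells and plasma particles from portal blood. Their identity is held by the growth factor receptor CSF1R and by the transcription factors PU.1, LXRα, ID3 and SPIC, under signals that include Notch ligands and BMPs from neighbouring endothelial and stellate cells. When resident Kupffer cells are lost, monocytes can fill the niche and acquire most of these genes, Timd4 late among them. In whole liver RNA, fewer Kupffer cells and less of a transcript per Kupffer cell cannot be told apart.

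Promoter sequences are shown for Cd5l, Vsig4 and Marco because, with Adgre1, they had the largest falls in null liver. Each is the 250 bases before the RefSeq gene start in GRCm38.p6, on the strand of the gene, with the core of the PU.1 site (GAGGAA on either strand, TTCCTC as the reverse complement) in capitals. The stretches are chr3:87357631-87357880 (plus strand) for Cd5l, chrX:96293439-96293688 (minus strand) for Vsig4 and chr1:120505025-120505274 (minus strand) for Marco, each directly upstream of the first exon.
Cd5l: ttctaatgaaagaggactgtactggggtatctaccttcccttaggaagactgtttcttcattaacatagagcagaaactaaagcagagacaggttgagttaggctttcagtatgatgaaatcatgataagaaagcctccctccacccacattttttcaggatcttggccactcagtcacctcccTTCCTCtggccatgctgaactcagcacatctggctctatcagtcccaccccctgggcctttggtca
Vsig4: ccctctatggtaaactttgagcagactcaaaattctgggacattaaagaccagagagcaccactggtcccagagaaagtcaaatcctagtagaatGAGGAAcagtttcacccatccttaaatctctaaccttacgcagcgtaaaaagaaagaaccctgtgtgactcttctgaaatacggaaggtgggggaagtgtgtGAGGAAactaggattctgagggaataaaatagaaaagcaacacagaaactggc
Marco: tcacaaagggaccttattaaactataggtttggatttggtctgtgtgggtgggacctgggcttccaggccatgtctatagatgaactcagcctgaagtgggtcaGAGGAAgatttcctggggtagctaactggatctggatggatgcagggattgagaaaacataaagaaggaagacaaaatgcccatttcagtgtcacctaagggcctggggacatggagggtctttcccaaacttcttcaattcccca
The PU.1 core lay 66 bases before the start in Cd5l, 155 and 53 bases before it in Vsig4 and 146 bases before it in Marco. It was found in 3 of the 7 members with a promoter entry, and in 23.3% of 32851 RefSeq promoter windows of the same length. The MAF half-site TGCTGA was found in 4 of these 7 members, Cd5l, Clec4f, Timd4 and Folr2, and in 16.1% of all windows. The nuclear receptor half-site AGGTCA was found in Clec4f and Timd4 and in 14% of all windows, and the RBPJ core TGGGAA in Marco and Clec4f and in 21.6%. Both strands were searched. Folr2 has 2 starts, so the 7 members have 8 windows, and the shares over all promoters count windows and not genes. Counted by window, the PU.1 core was in 3 of the 8, the MAF half-site in 5, and each of the other 2 motifs in 2. A match describes the letters of a window and is not a binding site shown by these data.

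All 8 genes were lower in null than in wild-type livers, and 7 of them passed the test. Averaged over the diets, their log2 changes lay between -0.94 and -0.42, or 1.92-fold to 1.33-fold, with a median of -0.64. The median over all 14031 genes was -0.00047, and 3.98% of genes passed as lower. Changes are given with the standard error of a linear model over all 12 arrays (limma), and adjusted p-values are Benjamini-Hochberg values over the 14031 genes, called under 0.05. The direction was the same on both diets and in each of the 12 fits that left out 1 array.

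**Figure D1:**
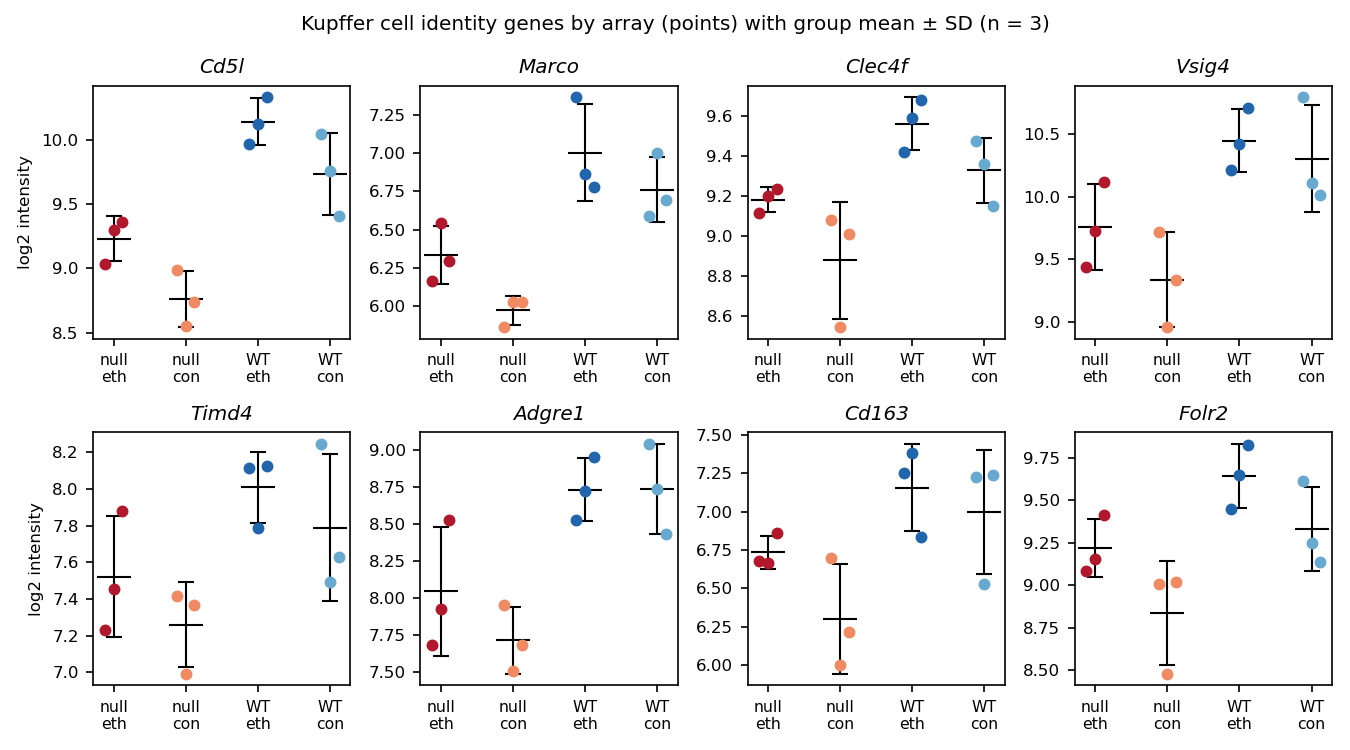
Log2 intensity (vertical axis) of the 8 Kupffer cell identity genes in each array (points), by group (horizontal axis: null ethanol, null control, wild-type (WT) ethanol, WT control), with the mean ± SD of each group (n = 3). The null control arrays had the lowest group mean for all 8 genes, and the axis range differs between panels.

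Cd5l encodes a secreted scavenger receptor cysteine-rich protein, also called AIM, that macrophages release into plasma. Its log2 intensities were 9.03, 9.30 and 9.36 in the null ethanol arrays and 8.98, 8.55 and 8.74 in the null control arrays, against 9.96, 10.12 and 10.33 in wild-type ethanol and 10.04, 9.75 and 9.41 in wild-type control arrays. All 6 null arrays lay below all 6 wild-type arrays, a separation in this direction that 2.11% of tested genes had. Cd5l fell by 0.94 ± 0.12 (1.92-fold, limma adjusted p = 0.000341), the largest change of the 8. It was also the 1 member called on both diets taken singly, at -0.91 ± 0.16 with ethanol (adjusted p = 0.0127) and -0.97 ± 0.16 on control diet (adjusted p = 0.00546).

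Marco and Vsig4 take up microbes. Marco encodes a class A scavenger receptor that binds bacteria and particles. It had log2 intensities of 6.16, 6.54 and 6.30 in null ethanol and 5.86, 6.03 and 6.03 in null control arrays, against 7.36, 6.86 and 6.78 in wild-type ethanol and 6.59, 7.00 and 6.69 in wild-type control arrays. The genotypes did not overlap, and with Cd5l this made 2 of the 8 members. Marco fell by 0.73 ± 0.11 (1.66-fold, limma adjusted p = 0.00187). Its null control arrays lay close to the filter level (5.61 to 5.71), so background may limit that fold.

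Vsig4 encodes the complement receptor CRIg, with which Kupffer cells catch C3-coated bacteria from blood. Its log2 intensities were 9.43, 9.73 and 10.12 in null ethanol and 9.72, 8.96 and 9.33 in null control arrays, against 10.22, 10.42 and 10.71 in wild-type ethanol and 10.80, 10.11 and 10.01 in wild-type control arrays. The third null ethanol array reached the level of the lower wild-type control arrays, so the genotypes overlapped when diets were pooled. Vsig4 fell by 0.83 ± 0.17 (1.78-fold, limma adjusted p = 0.0105).

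Adgre1 encodes F4/80, an adhesion G protein-coupled receptor widely used as a mouse macrophage marker. It had log2 intensities of 7.68, 7.93 and 8.53 in null ethanol and 7.95, 7.51 and 7.69 in null control arrays, against 8.53, 8.72 and 8.95 in wild-type ethanol and 9.04, 8.74 and 8.43 in wild-type control arrays. The third null ethanol array again lay among the lower wild-type arrays. Adgre1 fell by 0.85 ± 0.15 (1.81-fold, limma adjusted p = 0.00405). It lies on chromosome 17, as Ppard does, with 373 tested genes between them in RefSeq order. Of those 373 genes 24 passed in either direction, or 6.43%, against 7% of all tested genes. Among the 10 tested neighbours on each side of Adgre1, 2 passed, Vav1 at -0.43 and Khsrp at 0.27, named after their values were seen. The other 7 members lie on chromosomes 1, 3, 6, 7, 11 and X. Whether the place of Adgre1 on chromosome 17 bears on its fall was not tested.

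Clec4f encodes a C-type lectin that in mouse liver marks Kupffer cells. Its log2 intensities were 9.11, 9.20 and 9.23 in null ethanol and 9.08, 8.55 and 9.01 in null control arrays, against 9.42, 9.59 and 9.68 in wild-type ethanol and 9.48, 9.36 and 9.15 in wild-type control arrays. The groups were separate within each diet but overlapped across diets. Clec4f fell by 0.42 ± 0.10 (1.33-fold, limma adjusted p = 0.0208), the smallest change of the 8.

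Folr2 and Cd163 are receptors shared by Kupffer cells and other tissue macrophages. Folr2, folate receptor beta, had log2 intensities of 9.09, 9.16 and 9.41 in null ethanol and 9.01, 8.48 and 9.02 in null control arrays, against 9.45, 9.65 and 9.83 in wild-type ethanol and 9.61, 9.25 and 9.14 in wild-type control arrays. It fell by 0.46 ± 0.12 (1.38-fold, limma adjusted p = 0.0347), with groups that were separate within each diet. Cd163, which takes up haemoglobin bound to haptoglobin, had 6.68, 6.66 and 6.86 in null ethanol and 6.70, 6.00 and 6.21 in null control arrays, against 7.25, 7.38 and 6.84 in wild-type ethanol and 7.23, 6.53 and 7.24 in wild-type control arrays. Its groups overlapped on both diets. Cd163 fell by 0.56 ± 0.15 (1.47-fold, limma adjusted p = 0.0421), with the weakest support among the 7 members that passed.

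Timd4 encodes TIM-4, a phosphatidylserine receptor for dying cells that is typical of long-lived, embryo-derived Kupffer cells in mice. It had log2 intensities of 7.23, 7.46 and 7.88 in null ethanol and 7.42, 6.99 and 7.37 in null control arrays, against 8.12, 7.79 and 8.13 in wild-type ethanol and 8.25, 7.49 and 7.63 in wild-type control arrays. The genotypes overlapped with ethanol and were separate on control diet. Timd4 was the only member of the 8 that did not pass, at -0.51 ± 0.15 (1.42-fold, limma adjusted p = 0.0537). Its 95% confidence interval ran from -0.82 to -0.19.

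The number of members called depended on single arrays. It was 4 without null ethanol 1, wild-type ethanol 2 or wild-type control 1, and between 5 and 8 without any of the other 9 arrays. Cd5l, Marco, Vsig4 and Adgre1 kept the call in all 12 of these fits. Clec4f lost it in 4 of them, without null ethanol 1, wild-type ethanol 2 or 3, or wild-type control 1. Folr2 lost it in 6, those 4 and the fits without null ethanol 2 or null control 2. Cd163 lost it in 9, all but those without null control 1, wild-type ethanol 3 or wild-type control 2. With no filter on low values Cd163 and Folr2 did not pass (adjusted p = 0.0756 and 0.0639). Timd4 passed without null ethanol 3 (adjusted p = 0.0242) or wild-type control 2 (adjusted p = 0.034).

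On the control diet alone, all 8 members were lower in null livers. The test was passed by 4 of the 8, Cd5l, Marco, Vsig4 and Adgre1, where 1.89% of all tested genes passed as lower. Adgre1 had the largest change there, -1.02 ± 0.21 (2.03-fold, limma adjusted p = 0.0167), and the median of the 8 was -0.74. The 3 null arrays lay below the 3 wild-type arrays for 7 of the 8 members, all but Cd163, against 10% of tested genes. Leaving out null control 2 gave a count of 1, and leaving out wild-type control 1 a count of 2. The call of Vsig4 (adjusted p = 0.0365) was also lost without null ethanol 2, null control 3 or wild-type ethanol 2, with no filter, with a variance trend and robust fit, and in a fit of the 2 groups alone (adjusted p = 0.0866). With ethanol, all 8 members were again lower in null livers, with a median of -0.58. Only 1 of the 8 passed the test, Cd5l, where 1.33% of all tested genes passed as lower. The null arrays lay below the wild-type arrays for 6 of the 8, all but Timd4 and Cd163, against 14.4% of tested genes. For Adgre1 they nearly met, the highest null ethanol array being at 8.5255 and the lowest wild-type ethanol array at 8.5268. Without null ethanol 1, wild-type ethanol 2 or wild-type ethanol 3 the count was 0, and without null ethanol 3 or wild-type control 2 it was 2.

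**Figure D2:**
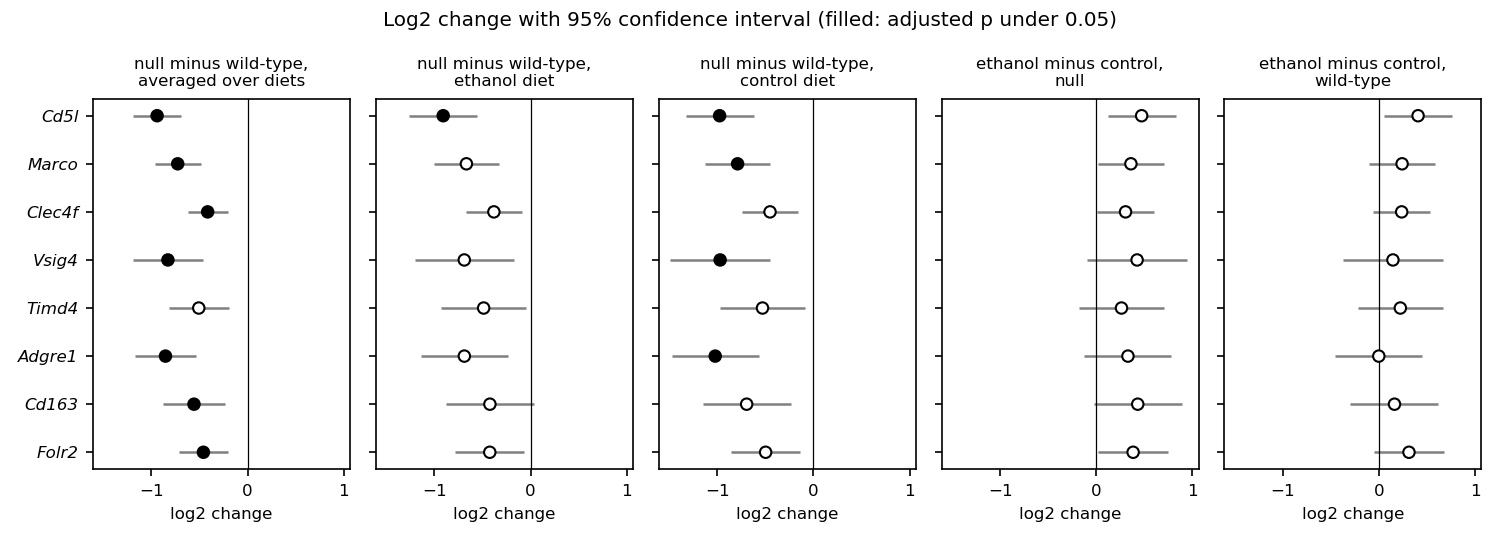
Log2 change (horizontal axis) of each of the 8 genes (rows) in 5 comparisons, with its 95% confidence interval from the limma fit of 12 arrays; filled points had an adjusted p under 0.05. Every null minus wild-type change is negative, and the ethanol minus control changes are positive, except that of Adgre1 in wild-type livers, with none called.

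Ethanol left no member called in either genotype. In null livers all 8 were higher with ethanol than on control diet, by 0.26 to 0.47 on the log2 scale with a median of 0.37. The median over all genes was -0.05. Cd5l had the smallest p at 0.47 ± 0.16 (limma adjusted p = 0.33), and its null ethanol arrays all lay above its null control arrays. The same separation held for Marco, Clec4f and Folr2, making 4 of 8 members, against 5.59% of tested genes. At an unadjusted p under 0.05 there were 4 of 8, against 3.81% of genes in that direction. At the adjusted threshold 0.00713% of genes passed in either direction. All 8 stayed positive without any 1 array, but sizes moved. Without null control 2, the array with the lowest value for 7 of the 8 members, the change was 0.14 for Clec4f, 0.24 for Vsig4, 0.13 for Timd4, 0.28 for Cd163 and 0.21 for Folr2. Without null ethanol 3 it was 0.09 for Adgre1, 0.08 for Timd4 and 0.24 for Vsig4, and without null ethanol 1 it was 0.51 for Adgre1 and 0.41 for Timd4.

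In wild-type livers 7 of the 8 were higher with ethanol, by 0.14 to 0.40, and Adgre1 differed by -0.00 ± 0.21 (95% confidence interval -0.45 to 0.45). Cd5l was again the largest, at 0.40 ± 0.16 (limma adjusted p = 0.282), and it was the only member at an unadjusted p under 0.05, against 7.75% of genes in that direction. Directions there rested on single arrays for some members. Cd163 was at -0.07 without wild-type control 2, Vsig4 at -0.00 without wild-type control 3, and Adgre1 lay between -0.16 and 0.15 over the fits without 1 array. Marco was at 0.06 without wild-type ethanol 1, Timd4 at 0.07 without wild-type control 2, and Cd5l at 0.24 without wild-type control 3. None of the 8 had ethanol arrays all above control arrays, against 10.8% of tested genes, and 0.0927% of genes passed at the adjusted threshold. Averaged over the genotypes all 8 were higher, with a median of 0.29. Again 4 of the 8 had an unadjusted p under 0.05, against 3.81% of genes in that direction, and none passed with limma, where 0.0143% of genes did. Over all 6 ethanol and 6 control arrays the diets overlapped for each member, and 0.0998% of genes were separate in that direction. The comparisons within null livers and between genotypes on control diet share the null control arrays, and those within wild-type livers share the wild-type control arrays with it.

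The ethanol change was larger in null than in wild-type livers for all 8 members, by 0.04 to 0.33, but the interaction passed for none of them (limma adjusted p from 0.604 to 0.962). At an unadjusted p under 0.05 there were also 0 of 8, where 15% of genes had one and 0.0143% passed the adjusted threshold. That direction was not stable: without 1 array the lowest value was -0.09 for Cd5l, -0.10 for Clec4f, -0.19 for Timd4 and -0.10 for Folr2, without wild-type control 1 for Cd5l and Timd4 and without null control 2 for Clec4f and Folr2. The intervals were wide, from -0.31 to 0.97 for Adgre1 and from -0.43 to 0.57 for Cd5l, so ethanol effects that differ between genotypes by amounts inside them were not detectable. The group means of 7 members ran, from low to high, null control, null ethanol, wild-type control, wild-type ethanol. For Adgre1 the 2 wild-type groups stood the other way round, at 8.73 ± 0.21 with ethanol and 8.74 ± 0.30 on control diet (SD, n = 3). The 2 null groups, and the 2 wild-type groups, did not differ by the test for any member. Null ethanol and wild-type control, the middle pair in which genotype and diet both differ, were not tested against each other; they were 9.23 ± 0.17 and 9.73 ± 0.32 for Cd5l and 9.18 ± 0.06 and 9.33 ± 0.16 for Clec4f.

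Most members shared their high and low arrays within groups. Null control 2 was the lowest array of its group for 7 members and null ethanol 1 for 7. Null ethanol 3 was the highest of its group for 7 members, and null control 1, wild-type ethanol 3 and wild-type control 1 for 6 each. The within-group SD ranged from 0.18 for Clec4f to 0.36 for Vsig4, against a median of 0.14 over all tested genes. Marco and Cd163 stood apart from this pattern. The highest wild-type ethanol array of Marco was the first, in which 5 other members had their lowest value. Cd163 was lowest in wild-type ethanol 3, the highest array of its group for 6 members. It was highest in wild-type control 3, the lowest array of its group for 5 members.

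General macrophage genes fell with the members. Of 23 tested genes, 18 passed as lower and 0 as higher in null livers averaged over diets, against 3.98% of all tested genes as lower. All 23 changes were negative and the median was -0.51. The scavenger receptor gene Msr1 fell by 0.89 ± 0.15, the lysosomal protease gene Ctss by 0.76 ± 0.12, the leukocyte phosphatase gene Ptprc by 0.74 ± 0.12 and the signalling adaptor gene Tyrobp by 0.63 ± 0.11 (limma adjusted p from 0.0021 to 0.00379). Csf1r, the receptor on which Kupffer cell survival depends, fell by 0.56 ± 0.14 (adjusted p = 0.0305). The count was 8 without null ethanol 1 or wild-type ethanol 3, 9 without null control 2 or wild-type control 1, 11 without wild-type ethanol 2 and 11 with no filter on low values. The summed linear intensity of these 23 genes lay between 6562 and 8768 in null ethanol and between 5805 and 7279 in null control arrays, against 9030 to 11430 in wild-type ethanol and 8101 to 10769 in wild-type control arrays. That of the 8 members lay between 2843 and 3854 in null ethanol and between 2043 and 2985 in null control arrays, against 4537 to 5694 in wild-type ethanol and 3641 to 5401 in wild-type control arrays. Within each array, the mean log2 level of the members minus that of the 23 genes was 0.34 ± 0.03 in null ethanol and 0.17 ± 0.08 in null control arrays, against 0.48 ± 0.11 in wild-type ethanol and 0.36 ± 0.11 in wild-type control arrays (SD, n = 3). On the control diet the genotypes were separate only narrowly, the highest null array being at 0.232 and the lowest wild-type array at 0.238. They overlapped slightly with ethanol, and no p is given because the members were chosen with results known.

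Other genes known from Kupffer cells were mostly lower. Of 13 tested, 11 were negative and 2 positive, with a median of -0.38. The adjusted threshold was passed by 5 as lower and 0 as higher, against 3.98% of all tested genes as lower. That count was 3 without null ethanol 1, wild-type ethanol 3 or wild-type control 1. Fabp7, a fatty acid binding protein gene, fell by 0.98 ± 0.14 (limma adjusted p = 0.000952), Pcolce2 by 0.47 ± 0.08, Il18bp by 0.46 ± 0.11 and the complement gene C6 by 0.62 ± 0.14, C6 being made by hepatocytes as well. Hmox1, the haem oxygenase, was the fifth at -0.38 ± 0.10 (adjusted p = 0.0452). The lectin receptor gene Clec1b, at -0.44 ± 0.14, did not pass (adjusted p = 0.0806), nor did Id3, at -0.60 ± 0.17 (adjusted p = 0.0504). The Id3 average joins unlike diets. Id3 averaged 7.54 in null and 8.57 in wild-type arrays with ethanol, and 7.63 and 7.80 on the control diet. Nr1h3, which encodes LXRα and is expressed in hepatocytes too, differed by 0.01 ± 0.05, and the ferroportin gene Slc40a1 by 0.22 ± 0.09 (adjusted p = 0.16). Spic did not pass the filter.

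Of 15 genes of monocytes and recruited macrophages on the array 8 were tested. With limma 0 passed, against 7% of all tested genes in either direction. Their median was 0.00, with Itgam at -0.18 ± 0.09, Trem2 at 0.19 ± 0.09, Gpnmb at -0.18 ± 0.11 and Cd9 at 0.24 ± 0.15. Gpnmb and Itgam averaged 5.61 and 5.91 over the 12 arrays, near the filter level, so little change could show in them, and the difference from the members was not tested. Their summed linear intensity, most of it from Fn1, which hepatocytes also express, lay between 10052 and 10653 in null ethanol and between 10363 and 10688 in null control arrays, against 9568 to 10367 in wild-type ethanol and 10006 to 10382 in wild-type control arrays.

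**Figure D3:**
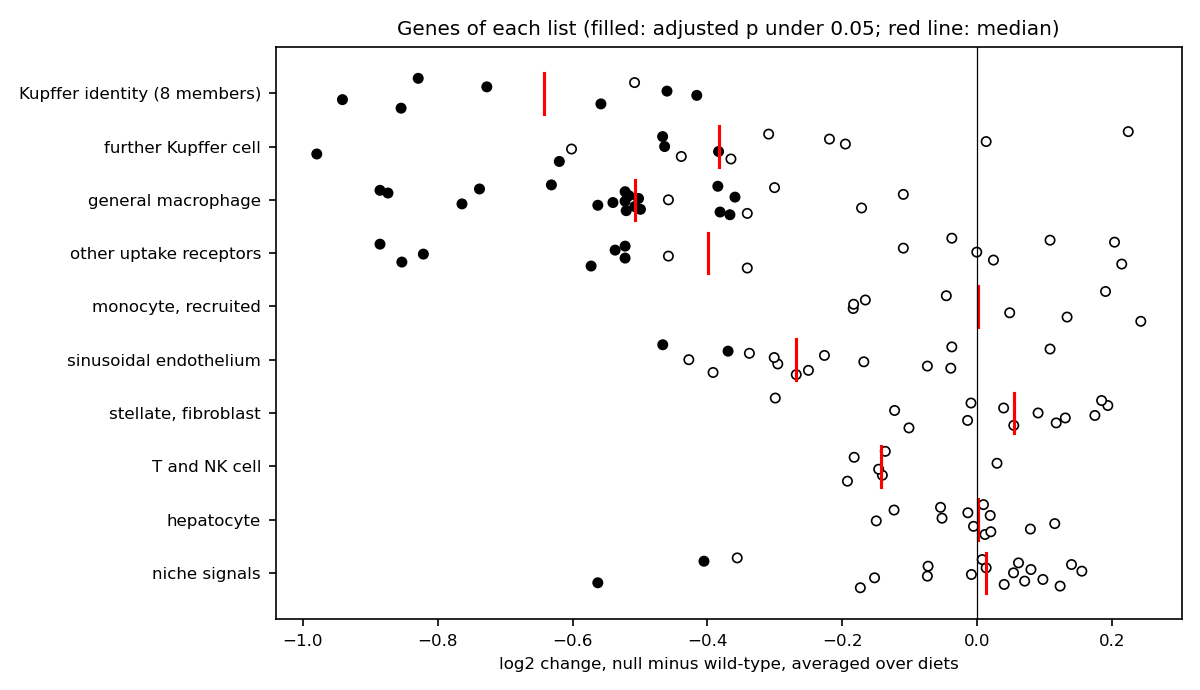
Null minus wild-type log2 change as the mean of both diets (horizontal axis), of every tested gene in 10 gene lists (rows); filled points had an adjusted p under 0.05 and red lines are medians. General macrophage genes lie near the 8 members, while the medians of monocyte and hepatocyte genes are 0.00.

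Among uptake receptors other than the members, 7 of 16 tested genes passed as lower and 0 as higher, against 3.98% of all tested genes as lower. The median of the 16 was -0.40, and 4 passed without null ethanol 1. The beta-glucan receptor gene Clec7a fell by 0.85 ± 0.19, the Fc receptor gene Fcgr4 by 0.82 ± 0.14, the integrin gene Itgb2 by 0.54 ± 0.09 and the complement receptor gene C3ar1 by 0.57 ± 0.11 (limma adjusted p from 0.00426 to 0.019). Among receptors that hepatocytes or endothelial cells also carry, Mrc1 passed as lower averaged over diets, at -0.52 ± 0.14 (limma adjusted p = 0.04). Scarb1 at 0.20 ± 0.06, Cd36 at 0.21 ± 0.28, Stab1 at 0.11 ± 0.11 and Stab2 at -0.04 ± 0.11 did not pass. On the control diet alone Scarb1 rose, by 0.36 ± 0.09 (adjusted p = 0.0306), and it was at 0.04 ± 0.09 with ethanol. Of 11 other genes of haem and iron handling 3 passed as lower, against 3.98% of all tested genes. They were the transferrin receptor gene Tfrc at -0.65 ± 0.12 (limma adjusted p = 0.00649), Slc11a1, an iron transporter of phagosomes, at -0.52 ± 0.14 (adjusted p = 0.0418) and Hmox1. That count was 1 with no filter and 1 without null ethanol 1, null control 2 or 3, wild-type ethanol 2 or 3, or wild-type control 1 or 2.

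Of 19 genes for signals of the Kupffer cell niche, 2 passed as lower, against 3.98% of all tested genes. They were Csf1r, also counted among the general macrophage genes, and the growth factor gene Tgfb1, at -0.41 ± 0.09 (limma adjusted p = 0.014). The count was 1 without null ethanol 1 or 2, null control 2 or 3, wild-type ethanol 2 or 3, or wild-type control 1, and 1 with no filter. The CSF1R ligands did not pass, Csf1 at 0.04 ± 0.09 and Il34 at 0.05 ± 0.07, nor did the BMP genes Gdf2 at -0.01 ± 0.09 and Bmp10 at 0.12 ± 0.12. The Notch ligand genes Dll4, at -0.15 ± 0.08, and Dll1, at 0.10 ± 0.11, and the TGFβ receptor gene Tgfbr2, at -0.36 ± 0.14, did not pass either. These averages join values that differed in sign between the 2 diets for many of the genes, though the interaction passed for none. With ethanol 16 of the 19 were negative (median -0.15) and 1 passed as lower, against 1.33% of all tested genes. That gene was Tgfb1, which fell by 0.63 ± 0.12 (limma adjusted p = 0.0212). On the control diet 14 of the 19 were positive (median 0.14) and 0 passed. Csf1 was at -0.15 ± 0.13 with ethanol and 0.23 ± 0.13 on the control diet, and Dll4 at -0.42 ± 0.12 with ethanol and 0.11 ± 0.12 on the control diet. The interaction was negative for 18 of the 19, against 56.0% of all tested genes. At an unadjusted p under 0.05 there were 6 of the 19, against 15% of all tested genes, and 0 were called by limma.

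Sinusoidal endothelial markers lay lower in null livers too. Of 15 tested 14 were negative with a median of -0.27, and 2 passed as lower, against 3.98% of all tested genes. Pecam1 fell by 0.37 ± 0.09 (limma adjusted p = 0.0201) and Tek by 0.47 ± 0.12 (adjusted p = 0.0378). The count was 0 without null ethanol 1 or 2, null control 2 or wild-type ethanol 3, 1 without null control 3, wild-type ethanol 2 or wild-type control 1, and 9 without null ethanol 3. Their summed linear intensity lay between 7165 and 12290 in null ethanol and between 8249 and 10276 in null control arrays, against 9571 to 11308 in wild-type ethanol and 9409 to 11227 in wild-type control arrays, so their groups overlapped where those of the members within each diet did not. Within each array, the members minus these endothelial genes lay between -0.72 and -0.26 in null ethanol and between -1.13 and -0.94 in null control arrays, against -0.28 to -0.14 in wild-type ethanol and -0.59 to -0.27 in wild-type control arrays (mean log2 levels). Those differences were separate on the control diet and overlapped with ethanol. Averaged over diets, the 12 hepatocyte genes had a median of 0.00 and the 13 stellate cell genes one of 0.05. In both lists 0 were called by limma, against 7% of all tested genes in either direction. On the control diet alone 1 of the 12 hepatocyte genes passed as higher, Ass1, a urea cycle enzyme, at 0.55 ± 0.14 (limma adjusted p = 0.0453). Of all 14031 tested genes 715 passed there in either direction. Ass1 was at -0.32 ± 0.14 with ethanol. Its probe set lay between percentiles 54.1 and 65.6 of genes, against 96.2 or above for every other hepatocyte gene listed. How well it reads the Ass1 transcript was not tested. Stellate genes were negative in 9 of 13 with ethanol (median -0.08) and positive in 11 of 13 on the control diet (median 0.19). On either diet 0 of them were called. The 6 tested T and NK cell genes had a median of -0.14 with 0 called averaged over diets.

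**Figure D4:**
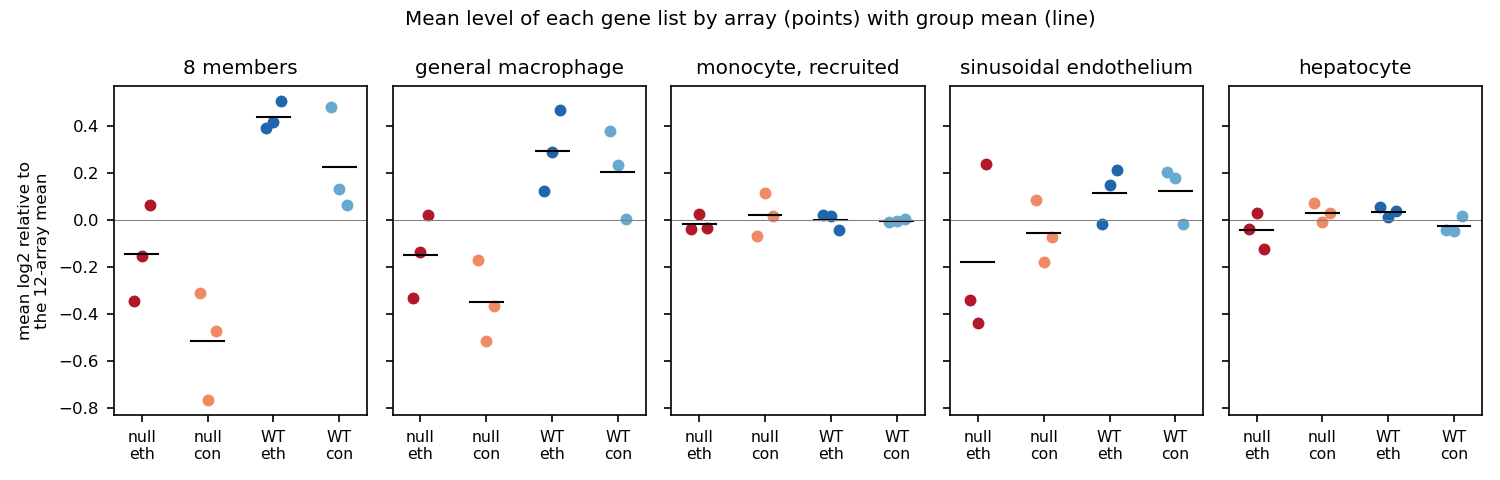
Mean log2 intensity of the tested genes of 5 lists relative to their own mean over 12 arrays (vertical axis), for each array (points) by group, with group means (lines). For the 8 members the arrays lay between -0.35 and 0.06 in null ethanol, between -0.77 and -0.31 in null control, between 0.39 and 0.51 in wild-type ethanol and between 0.06 and 0.48 in wild-type control.

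Relative to their own 12-array mean, the 8 members averaged -0.15 ± 0.20 in null ethanol, -0.52 ± 0.23 in null control, 0.44 ± 0.06 in wild-type ethanol and 0.22 ± 0.22 in wild-type control arrays (log2, SD, n = 3). The 23 general macrophage genes, on the same scale, averaged -0.15 ± 0.18 in null ethanol, -0.35 ± 0.17 in null control, 0.29 ± 0.17 in wild-type ethanol and 0.20 ± 0.19 in wild-type control arrays. Both lists thus had the same order of group means.

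The genes most like the members were found from Pearson's r, over the 12 arrays, between each tested gene and the mean of the 8 members after centring. This likeness includes the genotype difference itself and is a description without a test. The 10 highest non-members were Igsf6 (r = 0.99), Adgre4 (0.98), Fabp7 (0.97), Pilra (0.97), Mmd2 (0.96), Spi1 (0.96), C3ar1 (0.95), C1qc (0.95), Laptm5 (0.94) and Cd300ld (0.94). Spi1 encodes PU.1, Adgre4 is a relative of Adgre1, and C1qc encodes a chain of complement C1q. All 10 were also among the 50 genes highest by Spearman's rho, and 9 of the 10 among the 50 highest when only deviations from the 4 group means were used. Mmd2, a relative of a monocyte-to-macrophage differentiation gene, had the largest change of the 10, -1.48 ± 0.13 (2.78-fold). It lay between 5.79 and 6.88 in the 6 null arrays, with a median of 6.55, against 7.66 to 8.27 in the 6 wild-type arrays, with a median of 7.97. Its lowest null array was close to the filter level (5.61 to 5.71), so background may limit that fold.

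**Figure D5:**
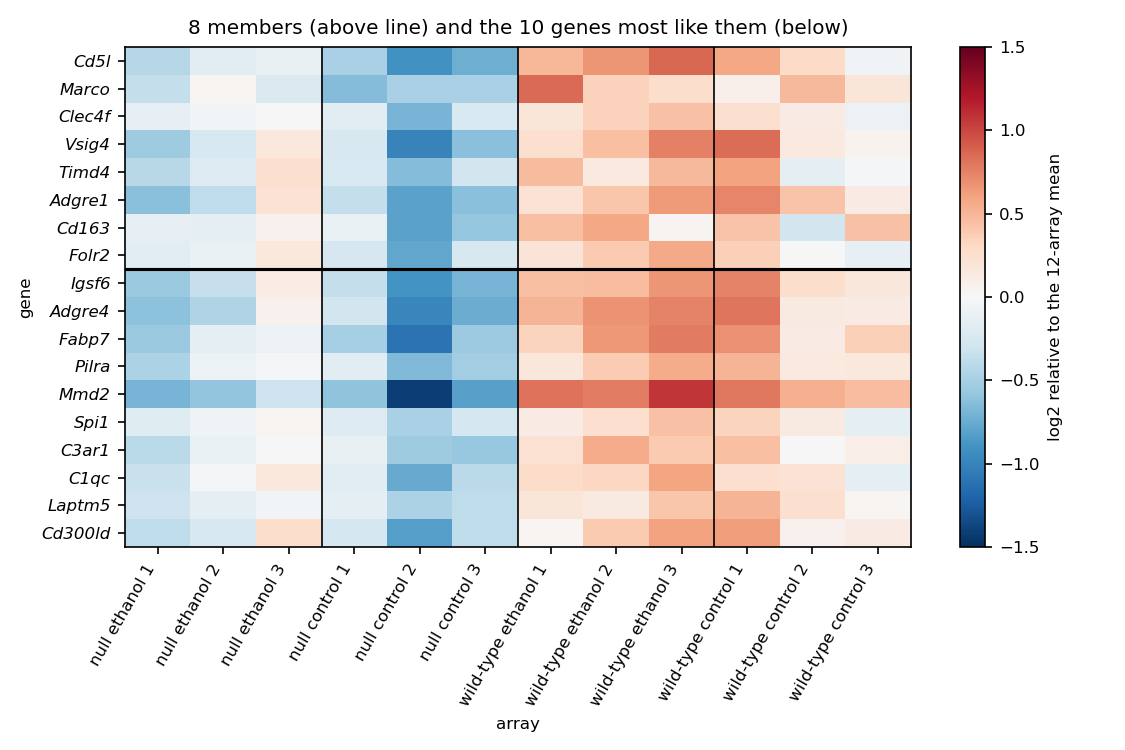
Log2 intensity relative to each gene's 12-array mean (colour, blue below and red above) for the 8 members and the 10 genes most like them (rows) in the 12 arrays (columns, by group). Null control 2 is the lowest column for most rows, and Mmd2 reaches the lowest values.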

How the data were processed

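Total RNA from mouse liver was measured on 12 Affymetrix Mouse Gene arrays. The deposited values are linear intensities per probe set; the submitters' processing notes name RMA. Here log2 of the deposited intensity was taken with no further normalization. Of 41345 probe sets, 23521 name exactly 1 gene in the platform annotation, 1814 several and 16010 none. The probe set with the highest mean stood for each of 22180 genes. Genes above the 40th percentile of an array in at least 3 arrays were kept, which left 14031. A limma 3.58.1 fit (R 4.3.3) over the 4 groups, with 8 residual degrees of freedom, gave 7 contrasts, and p-values were adjusted by Benjamini-Hochberg over all genes tested. The fit was tested on simulated data. The replicate numbers did not pair the samples: same-numbered arrays of different groups had correlations of deviations from -0.15 to 0.19, and 2 of 18 were over 0.1. No array left the fit and none was imputed. Named genes are the 8 members, the 10 genes most like their mean, and genes of lists for Kupffer cells, macrophages, other liver cells, niche signals, haem and iron handling and uptake receptors; 2 neighbours of Adgre1 were added after their values were seen. The members and the lists were chosen with earlier results of these data known, and lists share genes. Alternatives were the filter, quantile normalization, median subtraction, an offset, the mean of probe sets, a trend and robust fit, a replicate block, only the groups compared, and leaving out each array. Promoters are RefSeq sequences of GRCm38.p6, matched for 7 of the 8 members, all but Adgre1.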

Additional observations from a re-analysis of the deposited data

How the results depend on the processing

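Members called between null and wild-type livers numbered 5 with no filter and 7 or 8 under the other settings when averaged over diets, 3 or 4 on the control diet, and 1 or 2 with ethanol. It was 2 with ethanol under the stricter filter, with array medians subtracted and with the trend and robust fit, each time by Marco. Leaving out 1 array gave 4 to 8 averaged over diets, 1 to 5 on the control diet and 0 to 2 with ethanol. In the ethanol comparisons and the interaction the count was 0 under every setting run, leaving out 1 array included. The arrays share only a replicate number; with that number as a replicate block, 8 members were called averaged over diets, Timd4 among them (limma adjusted p = 0.0436), 4 on the control diet, 1 with ethanol and 0 in the other comparisons. No called value reversed, but 7 uncalled ones did. With array medians subtracted the ethanol change of Adgre1 in wild-type livers was 0.0053 and the interaction of Timd4 -0.0088. Leaving out 1 array, the ethanol change in wild-type livers ranged from -0.0032 to 0.388 for Vsig4, from -0.156 to 0.148 for Adgre1 and from -0.0748 to 0.320 for Cd163. The interaction ranged from -0.0864 to 0.230 for Cd5l, from -0.0968 to 0.171 for Clec4f, from -0.187 to 0.189 for Timd4 and from -0.105 to 0.171 for Folr2 (log2).

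Counts over all genes moved more. On the control diet 715 genes were called, 393 with no filter and 239 in a fit of the 2 groups alone; leaving out null control 2 gave 193, and leaving out wild-type control 2 gave 1306. With ethanol in wild-type livers 13 were called, 7 with no filter, 43 with the offset, 24 with the trend and robust fit, and 811 without wild-type control 2. For ethanol averaged over genotypes 2 were called, 5 after quantile normalization, 4 with the trend and robust fit, 0 with the replicate block and 293 without wild-type control 2. Averaged over diets 982 were called between genotypes, and 621 to 1318 without 1 array; with ethanol 251 were called, and 108 to 320 without 1 array. For the interaction 2 were called, and 84 without wild-type control 2. The cause was not tested. Among the members Marco and Cd163 lay nearest the filter level, so signal over background limits their folds most.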
